A study of Mus musculus with 4 samples.

Results

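The Mef2 family of the mouse has 4 genes, Mef2a, Mef2b, Mef2c and Mef2d, and their DNA methylation was compared between microglia of WT mice and of IRF8KO mice, which lack the transcription factor IRF8. Microglia are the resident macrophages of the brain. Whole-genome bisulfite sequencing was used, in which unmethylated cytosine is converted and methylated cytosine is not, so that the unconverted share of reads at a cytosine is its methylation level from 0 to 1. All 4 samples were microglia enriched by fluorescence-activated sorting from untreated C57BL/6J mice at 3 months of age, with 2 samples from WT mice and 2 from IRF8KO mice. Each started from 40000 cells, and 50 ng of DNA went through bisulfite conversion and 8 cycles of PCR before paired reads of 75 bp. The labels do not say how the Irf8 allele was made, what sex or litter the mice had, or whether the replicates were separate animals. Expression was not analysed here, so the sorted cells could not be checked against microglial marker genes.

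The members were taken by gene, and their rows were chosen by measured values: a position or region stands in the authors' deposited tables because its level differed between the groups. A listed position is 1 cytosine, or the G opposite it, with a posterior probability of at least 0.95 that the difference between the groups exceeds a threshold the header does not give, and a region is a stretch of neighbouring cytosines that the authors joined. A false discovery rate (FDR) accompanies each position. The differences are therefore given as a description, without a test. Positions and regions inside a Mef2 gene or within 10000 bp of it were taken, on GRCm38 (mm10) with GENCODE M21 genes. That gave 85 of 269406 listed positions and 3 of 3389 regions. Both tables give fitted levels of a first and a second group and no value per sample, and their headers do not say which group is WT. "Higher" and "lower" therefore mean the first group relative to the second, and no genotype is attached to a direction. The spread between the 2 replicates and the read depth behind each level are unknown.

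MEF2 proteins are MADS-box transcription factors that bind an A/T-rich element as dimers. Class IIa histone deacetylases hold them in a repressed state, and calcium-dependent and mitogen-activated kinase signals release them. They are best known from muscle, neurons and blood cells, and Mef2c is part of the transcription factor programme that marks microglia among macrophages.

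The sequences under the main differences are shown here because the results turn on where in the genes they lie and on how few CpG dinucleotides carry them. Each is the plus strand of GRCm38, written 5′ to 3′, and capitals mark the listed positions. The first 3 are 300-base windows centred on the 3 regions of Mef2c, at chr13:83591754-83592053, chr13:83597318-83597617 and chr13:83604910-83605209. The Mef2a intron window is chr7:67286657-67286956, centred on the longest run of listed positions in that gene. The short stretches are the listed positions with 50 bp on either side at chr13:83589188-83589359, where Mef2c had its lowest FDR, at chr3:88148039-88148197 in Mef2d, and at chr7:67244492-67244592 over an exon of Mef2a, which is transcribed from the other strand.
Mef2c region 1: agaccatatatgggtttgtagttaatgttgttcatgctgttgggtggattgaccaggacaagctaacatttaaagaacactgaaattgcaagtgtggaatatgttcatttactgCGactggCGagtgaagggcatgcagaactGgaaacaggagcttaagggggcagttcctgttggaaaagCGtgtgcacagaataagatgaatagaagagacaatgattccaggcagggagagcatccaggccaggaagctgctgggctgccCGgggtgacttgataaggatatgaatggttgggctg
Mef2c region 2: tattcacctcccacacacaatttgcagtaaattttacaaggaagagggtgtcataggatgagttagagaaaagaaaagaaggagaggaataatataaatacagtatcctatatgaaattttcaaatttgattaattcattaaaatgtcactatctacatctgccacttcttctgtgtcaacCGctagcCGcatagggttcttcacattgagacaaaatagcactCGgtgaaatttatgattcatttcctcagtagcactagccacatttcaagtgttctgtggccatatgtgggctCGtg
Mef2c region 3: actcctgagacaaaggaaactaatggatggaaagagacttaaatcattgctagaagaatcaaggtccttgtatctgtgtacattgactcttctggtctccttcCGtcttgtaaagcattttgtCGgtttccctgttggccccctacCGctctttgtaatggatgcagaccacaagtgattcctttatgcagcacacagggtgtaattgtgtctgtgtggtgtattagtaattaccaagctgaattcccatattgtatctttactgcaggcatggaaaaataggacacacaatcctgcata
Mef2a intron window: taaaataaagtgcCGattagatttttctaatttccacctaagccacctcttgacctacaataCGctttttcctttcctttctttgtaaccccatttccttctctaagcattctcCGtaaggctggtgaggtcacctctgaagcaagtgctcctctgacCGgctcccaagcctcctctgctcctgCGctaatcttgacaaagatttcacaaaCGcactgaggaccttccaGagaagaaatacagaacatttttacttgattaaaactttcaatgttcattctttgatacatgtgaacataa
Mef2c stretch upstream of region 1: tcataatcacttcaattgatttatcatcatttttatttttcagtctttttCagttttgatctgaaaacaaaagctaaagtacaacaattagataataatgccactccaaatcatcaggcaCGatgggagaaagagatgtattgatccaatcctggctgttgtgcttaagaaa
Mef2d intron stretch: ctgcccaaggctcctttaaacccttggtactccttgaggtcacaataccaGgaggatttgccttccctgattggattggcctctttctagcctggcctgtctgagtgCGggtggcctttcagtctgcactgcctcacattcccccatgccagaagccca
Mef2a exon stretch: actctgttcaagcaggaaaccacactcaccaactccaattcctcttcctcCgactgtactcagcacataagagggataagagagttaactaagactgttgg
Reference CpGs in these windows number 4, 4 and 3 in the Mef2c region windows, 6 in the Mef2a intron window and 1 in each of the 3 short stretches. Capitals that stand in pairs are the C and the G of 1 CpG, listed once per strand. A lone capital is either a CpG listed on 1 strand or a listed position that is no CpG in the reference.

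Across the family, listed differences lay mostly in Mef2c and Mef2a and were few at Mef2b and Mef2d. The authors' deposited table lists 52 positions at Mef2c, 29 at Mef2a, 3 at Mef2d and 1 at Mef2b. Of the 85 positions, 49 were higher and 36 were lower, and over all listed positions of the genome 61.9% were higher. Neighbouring positions share a smoothed value, so positions within 500 bp of each other were joined into 17 clusters, of which 6 were higher and 11 lower. By each gene's principal transcript in GENCODE, 15 of the 17 clusters lay in introns and 2 outside the genes. The intron share of all listed positions was not computed, so this count has no background beside it. An FDR under 0.05 was given to 12 positions, 3 higher and 9 lower, which is 14.1% of the family's listed positions against 18.7% of all listed positions. Only Mef2c had regions.

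Gene length bears on these counts, because a longer gene offers more positions. In all, 9.19% of 21938 protein-coding genes had a region within 10000 bp, and 26.1% of the 2492 genes of 100 kb or longer did. Mef2c, which spans 163047 bp, had 3 regions, and 5.02% of those long genes had 3 or more. Mef2a, of nearly the same length at 141696 bp, had none. Mef2b and Mef2d span 27778 and 29715 bp, and of the 5152 genes between 20 and 50 kb, 9.34% had a region. At 3 of the 4 Mef2 genes at least 1 position had an FDR under 0.05, as at 30.8% of all protein-coding genes. By length, that share was 66.8% of genes of 100 to 200 kb and 29.5% of genes of 20 to 50 kb.

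The share of tested positions that are listed puts the genes on one scale; the number tested was read from the row numbers the authors left in the table. It was 2.02% of 2580 tested positions at Mef2c and 1.41% of 2059 at Mef2a, but 0.203% of 1477 at Mef2d and 0.0666% of 1500 at Mef2b. Genome-wide, 0.63% of tested positions were listed. The median over genes was 0.175%, and over genes of 100 kb or longer it was 0.456%, with quartiles of 0.194% and 0.913%. In this window Mef2c and Mef2a lay above the upper quartile of long genes, with a lower share in 95.1% and 88.8% of them. With flanks of 50000 bp the share was 0.769% at Mef2a and 0.553% at Mef2d. The quartiles were taken with flanks of 10000 bp only, so shares in the wider window cannot be placed among long genes. The share of genes with a region is larger among longer genes, as the plot of genes by length shows.

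**Figure D1:**
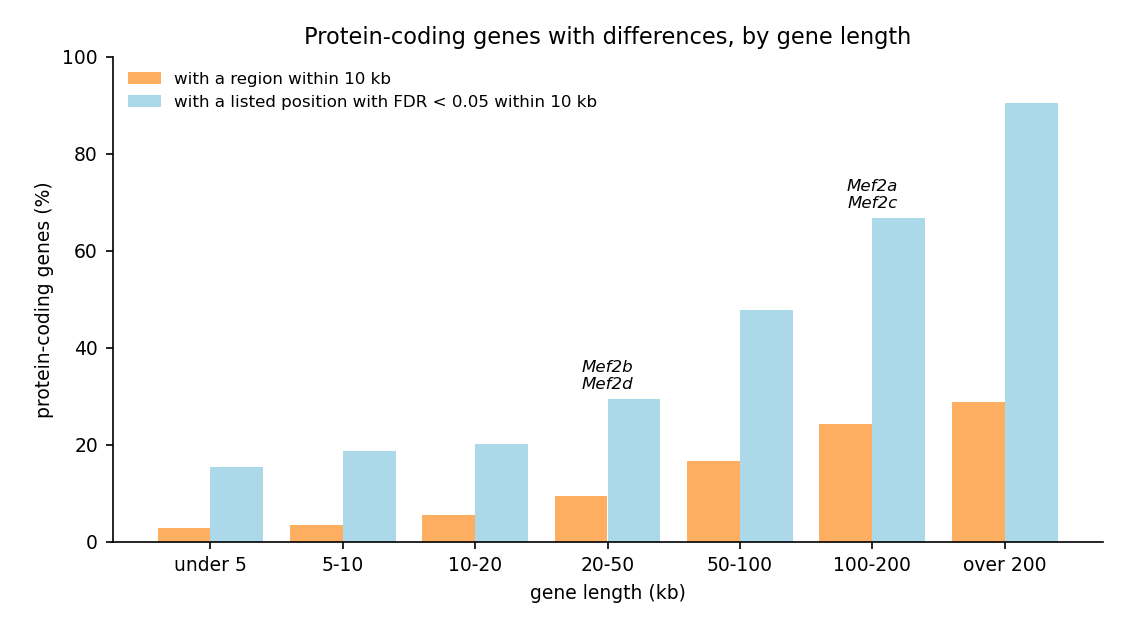
Share of protein-coding genes with a region and with a position with an FDR under 0.05, in percent, by gene length in kb, from the authors' deposited tables. The share with a region rises from 2.83% of genes under 5 kb to 28.9% of genes over 200 kb; Mef2a and Mef2c fall in the bin of 100 to 200 kb, Mef2b and Mef2d in that of 20 to 50 kb.

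None of the 4 genes had a listed position near a promoter. Their basic transcripts have 18 distinct start sites, and 0 listed positions lay within 2000 bp of any of them. How many of all gene starts have none was not counted, and genome-wide 0.63% of tested positions were listed. The 0 is therefore not read as particular to the Mef2 genes. The nearest listed position was 4573 bp from a start. At Mef2c, 1222 successive tested positions, over 84823 bp that hold all 11 starts, were not listed. Runs of unlisted tested positions around the starts were 1580 at Mef2a, 1609 at Mef2d and 5054 at Mef2b. An unlisted position has no level in these data, so what the promoters' methylation was is not known here.

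Mef2c (ENSMUSG00000005583.16, chr13:83504034-83667080, plus strand) encodes the member linked to microglial identity, and its differences went in both directions. Of its 52 listed positions, 25 were higher and 27 lower, and of its 9 clusters 3 were higher and 6 lower. Clusters 2 to 8, numbered along the chromosome, lie within a stretch of 44688 bp, chr13:83580250-83624937, in which 50 of 559 tested positions (8.94%) were listed. The ends of the stretch were set at its outermost listed positions, so that share is high by construction. Gaps of 2377 to 10769 bp separate these clusters, which ran lower, lower, lower, higher, lower, higher and higher. All 7 lie in introns 3 and 4 of Mef2c-218, downstream of the start of every basic transcript. The tested enhancer element mm1175 of the VISTA collection, chr13:83571867-83572485 in the RefSeq annotation, overlapped none of them and was 7765 bp from the nearest.

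**Figure D2:**
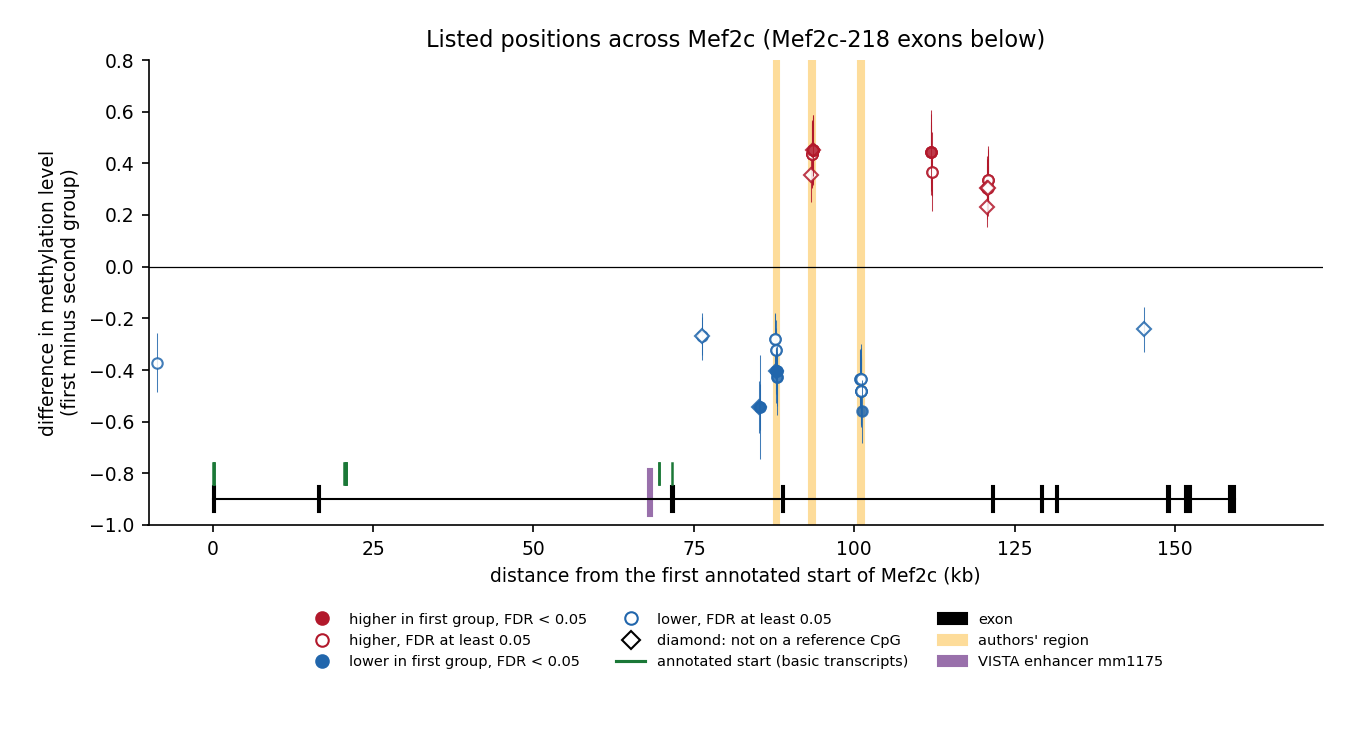
Difference in methylation level (first minus second group, authors' deposited table) at each listed position of Mef2c against distance from the gene start in kb, with the authors' standard error; filled points have an FDR under 0.05, diamonds lie off a reference CpG, green ticks are transcript starts, yellow bands the 3 regions and the purple band mm1175. All listed positions in intron 3 lie below 0, and those in intron 4 lie on both sides of it. In all, 50 of the 52 listed positions lie in 44688 bp.

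The most upstream region, region 1, was less methylated in the first group. It covers 69 bp at chr13:83591869-83591937 in intron 3, 87869 bp from the gene start, and holds 6 listed positions and 2 whole reference CpGs. The authors' deposited table gives levels of 0.419 and 0.808 in the first and second group, a difference of -0.389. Of its 6 positions 3 had an FDR under 0.05, the lowest 0.00387 and the highest of the region 0.723. It sits inside a cluster of 11 listed positions over 333 bp, all 11 tested positions of that span, and all lower, with differences at single positions between -0.427 and -0.280 in the authors' deposited table.

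Region 2 had the opposite direction, 5327 bp further on. It covers 406 bp at chr13:83597265-83597670 in intron 4 and holds 10 listed positions, 8 of them on 4 CpGs. Levels in the authors' deposited table were 0.622 and 0.186 in the first and second group, a difference of 0.436. Only 1 of its positions, off a CpG, had an FDR under 0.05, at 0.0144.

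Region 3 was lower again, 7176 bp beyond region 2 in the same intron. It covers 425 bp at chr13:83604847-83605271, 101025 bp from the gene start, with 9 listed positions, all on its 5 CpGs. The authors' deposited table gives levels of 0.161 and 0.629 and a difference of -0.469. Its 1 position with an FDR under 0.05 (0.00784) is the last of the region, with levels of 0.237 and 0.797 and a difference of -0.560 in the authors' deposited table.

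Against the other regions of the genome, those of Mef2c were of ordinary size. The absolute difference was larger than in 40.3%, 66.2% and 79.1% of all 3389 regions for regions 1 to 3. The area score, which is the sum of the test statistics over a region's positions, was -23.5, 35.7 and -33.8 in the authors' deposited table, against a median absolute score of 34.1. Among all regions 53.3% were higher. A mix of directions within a gene was seen in 146 of the 523 genes with 2 or more regions (27.9%).

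**Figure D3:**
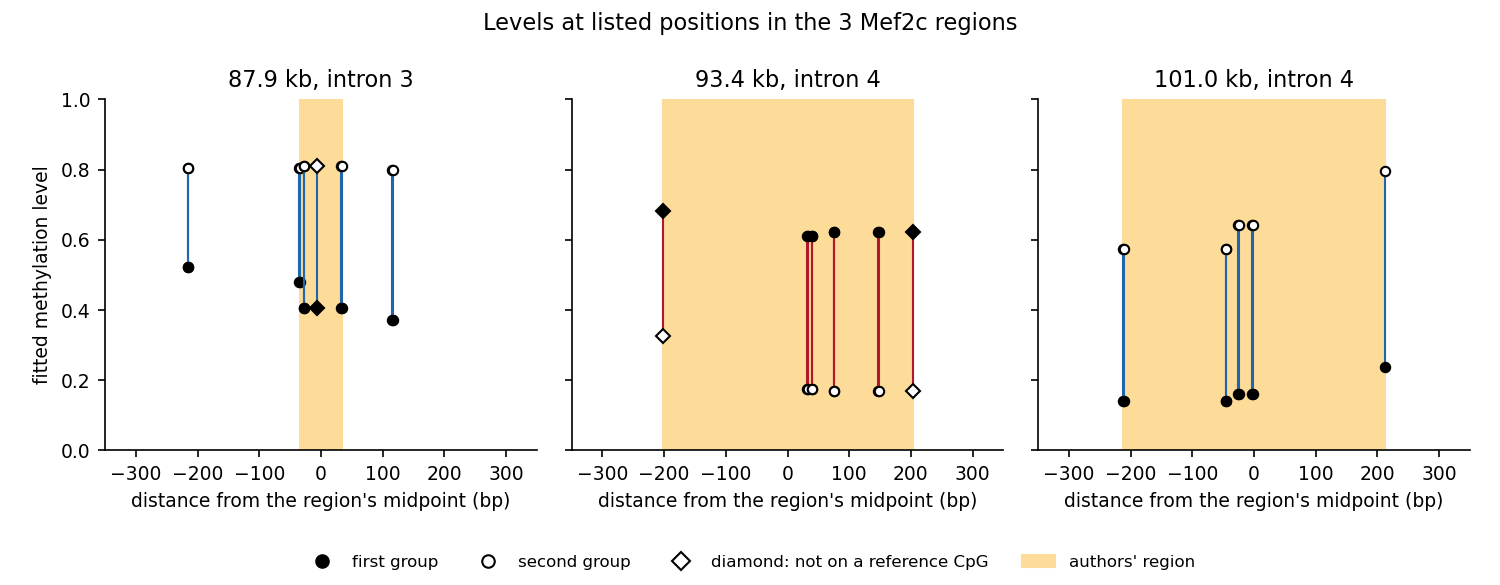
Fitted methylation level (0 to 1, authors' deposited table) of both groups at each listed position in and near the 3 regions of Mef2c. Filled points are the first group and open points the second, and diamonds lie off a reference CpG. Yellow bands are the regions, and distance is from each region's midpoint in bp. Over the whole region, regions 1 and 3 are lower in the first group at 0.419 and 0.161, and region 2 is higher at 0.622. Not drawn are the median levels of all regions that differ in the same direction. They are 0.332 against 0.772 for the 1581 lower regions and 0.740 against 0.311 for the 1808 higher ones.

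The levels themselves differed between the regions. The first-group level of region 3, 0.161 in the authors' deposited table, lay below the median of lower regions (0.332), and that of region 1, 0.419, lay above it. In region 2 the second-group level of 0.186 was below the 0.311 median of higher regions. All 3 regions are intronic in each of the 13 basic Mef2c transcripts, as intron 1, 2 or 3 for region 1 and intron 2, 3 or 4 for the others. Repeat-masked sequence covers 0%, 17.5% and 10.1% of them, against a median of 7.94% over all regions and 36.4% of the genome.

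Outside the regions, the position with the lowest FDR of Mef2c was in cluster 3, 85239 bp from the gene start. At chr13:83589308, on a CpG, the authors' deposited table gives 0.395 and 0.938, a difference of -0.543 with a standard error (SE) of 0.0879 and an FDR of 4.76e-06. The G of the same CpG had an SE of 0.203 and an FDR of 1 in the authors' deposited table, although its fitted levels are the same. A C that lies off any CpG, at chr13:83589238, shares those levels and had an FDR of 0.000286 in the authors' deposited table. These 3 are the capitals of the stretch printed above, and they were not joined into a region.

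Downstream, 2 higher clusters lay in intron 4. Cluster 7, chr13:83616041-83616133, had median levels of 0.697 and 0.254 over 6 positions in the authors' deposited table, a difference of 0.442, with 1 FDR under 0.05 (0.0275). For cluster 8, chr13:83624681-83624937, 9 positions gave 0.564 and 0.258, a difference of 0.306 with no FDR below 0.156 in the authors' deposited table. Clusters 5 to 8 also fall inside an antisense non-coding model on the other strand, Gm52043 (chr13:83592977-83625269, RefSeq), and methylation of a position belongs to both.

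The remaining clusters of Mef2c were small and lower. Cluster 2, chr13:83580250-83580260 in intron 3, had 2 positions with levels of 0.660 and 0.929 and a difference of -0.269, with a lowest FDR of 0.143 in the authors' deposited table. A single position at chr13:83495426, 8608 bp before the gene start, differed by -0.371 with an FDR of 0.361, and a single position in intron 7 at chr13:83649258 by -0.243 with an FDR of 0.905, both in the authors' deposited table. The first of these is the outermost position that the window of 10000 bp took in. The nearest listed position beyond the window was 15203 bp from its edge, with a difference of 0.262 and an FDR of 1 in the authors' deposited table.

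Mef2a (ENSMUSG00000030557.17, chr7:67231163-67372858, minus strand) encodes a broadly expressed member, and most of its listed positions were higher. Of 29 positions 24 were higher and 5 lower, but these formed only 6 clusters, 3 in each direction. The 3 higher clusters lie in introns 1, 3 and 4 of Mef2a-201, at 15399, 58287 and 86052 bp from the gene start. The 3 lower ones lie near the end of the gene, in intron 8. A single position had an FDR under 0.05, and 19 of the 29 had an FDR above 0.5.

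The cluster in intron 4 carried 19 of the 29 positions. It spans 459 bp at chr7:67286577-67287035, 86052 bp from the gene start, and 19 of its 20 tested positions were listed, all higher. In the authors' deposited table its median levels were 0.731 and 0.367, and the differences of its positions ran from 0.292 to 0.456. The levels varied along the plus strand, with 0.666 and 0.210 at the first position and 0.805 and 0.513 at the last in the authors' deposited table. The authors did not list it as a region, and 4 of its positions had a p-value under 0.001. The position with the lowest FDR (0.00109, difference 0.456 with an SE of 0.0902 in the authors' deposited table) is the first, chr7:67286577, which lies off a CpG.

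**Figure D4:**
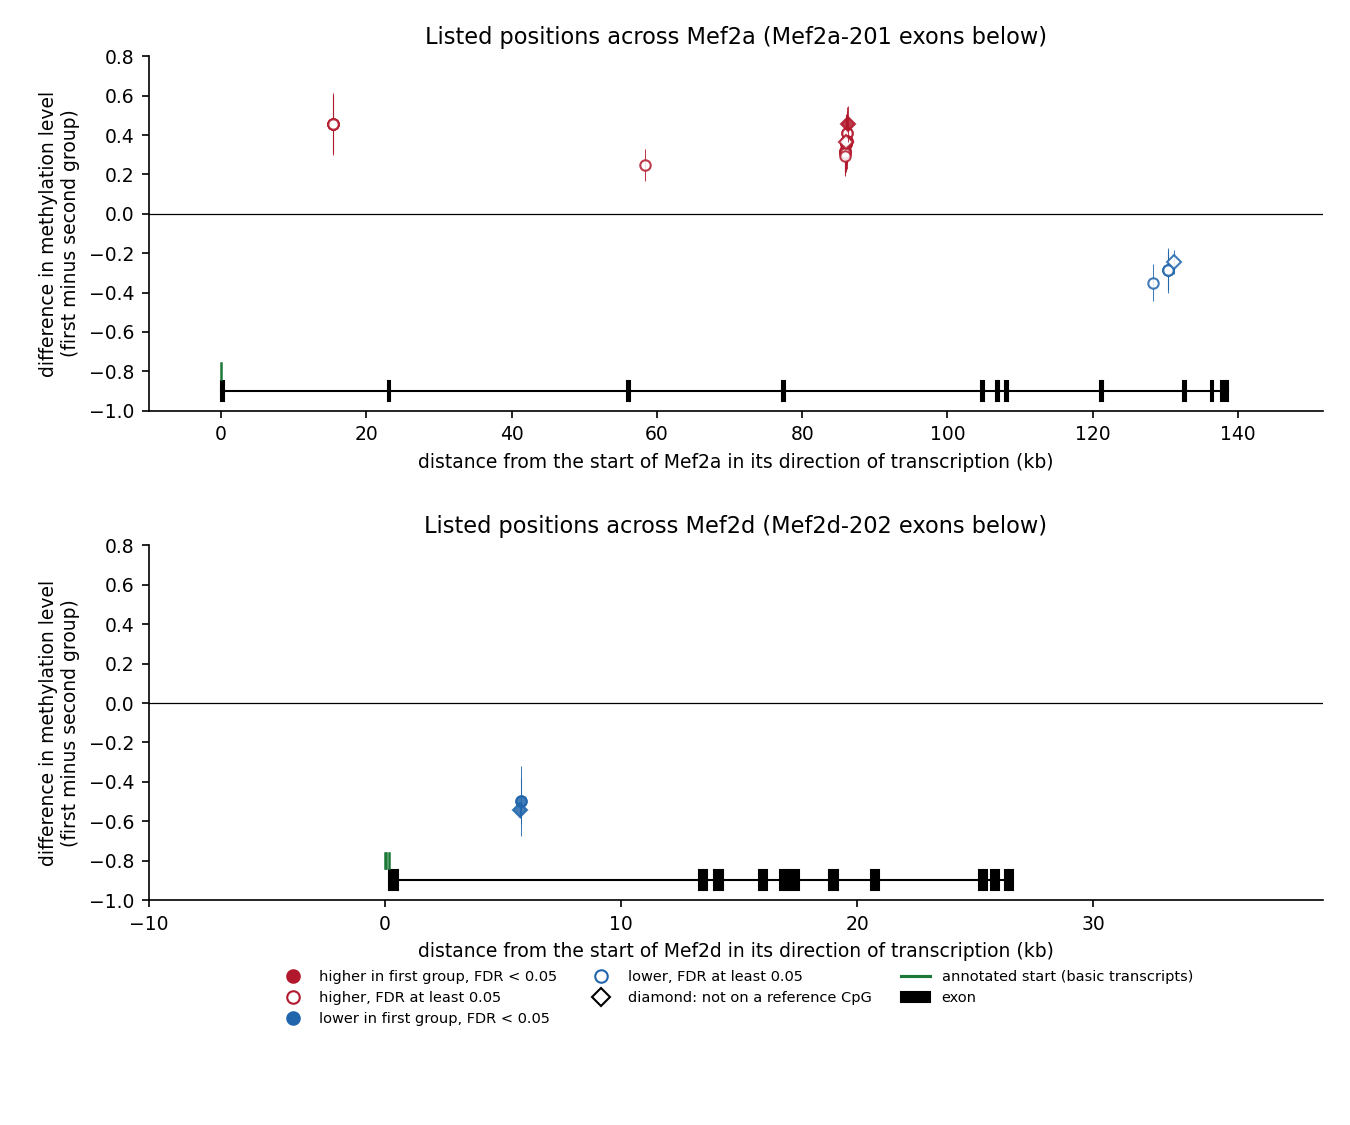
Difference in methylation level (first minus second group, authors' deposited table) with the authors' standard error at each listed position of Mef2a and of Mef2d, against distance from the gene start in kb; filled points have an FDR under 0.05 and diamonds lie off a reference CpG. Mef2a has 24 positions above 0 and 5 below, and Mef2d has 3 below.

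Nearer the start, 4 positions in intron 1 at chr7:67357431-67357488, 15399 bp from the start, had levels of 0.775 and 0.319 and a difference of 0.456, with no FDR below 0.234 in the authors' deposited table. This equals the largest difference in the intron 4 cluster, but the SE of 0.132 to 0.157 was wider. A lone position in intron 3, chr7:67314571, differed by 0.249 with an FDR of 0.641 in the authors' deposited table. The 300-base sequence centred on that lone position is 100% repeat-masked.

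The lower positions of Mef2a include the one cluster of the family that touches an exon. At chr7:67244542 the levels were 0.211 and 0.561, a difference of -0.350 with an SE of 0.0942 and an FDR of 0.121 in the authors' deposited table. It lies in a 24-bp coding exon, chr7:67244521-67244544, which Mef2a-208 includes as exon 9 of 12 and which Mef2a-201 leaves out. The 2 other lower clusters, at chr7:67241646 and chr7:67242506-67242546, differed by -0.243 and -0.287, with lowest FDRs of 0.0583 and 0.594 in the authors' deposited table. GENCODE extends Lysmd4, a gene on the other strand, across 24 of the 29 positions (chr7:67222544-67307330), whereas the RefSeq model ends at 67228468 and reaches none of them.

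Mef2d (ENSMUSG00000001419.17, chr3:88142372-88172086, plus strand), another broadly expressed member, had 3 listed positions in a single cluster of 59 bp, all lower. They lie in intron 1 of 10, 5746 bp from the gene start, and are all 3 tested positions of the span. At chr3:88148089 the authors' deposited table gives 0.342 and 0.887, a difference of -0.545 with an SE of 0.0376 and an FDR of 2.53e-41. Only 30 listed positions of the genome had a lower FDR, and 0.298% of all listed positions had a smaller SE. That position lies off any CpG of the reference.

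The CpG of the same cluster gave the same direction with a wider error. Its C, chr3:88148146, had levels of 0.352 and 0.849, a difference of -0.497 with an SE of 0.117 and an FDR of 0.0221 in the authors' deposited table. Its G had an SE of 0.176 and an FDR of 0.939 in the authors' deposited table. Both strands of the CpG thus had a wider error than the position off a CpG. The nearest listed position beyond the window, 7116 bp from its edge, was also lower, with a difference of -0.238 and an FDR of 0.302 in the authors' deposited table.

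Mef2b (ENSMUSG00000079033.10, chr8:70139711-70167488, plus strand), the most divergent member of the family, had no listed position in the gene itself. Its only one in the window was chr8:70175414, 7926 bp past the gene end and inside the neighbouring gene Tmem161a. Levels there were 0.571 and 0.878, a difference of -0.307 with an SE of 0.105 and an FDR of 0.757 in the authors' deposited table. The 300-base sequence centred on that position is 100% repeat-masked. The longest Mef2b model starts inside Borcs8, so that its first start site is that of a read-through transcript.

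**Figure D5:**
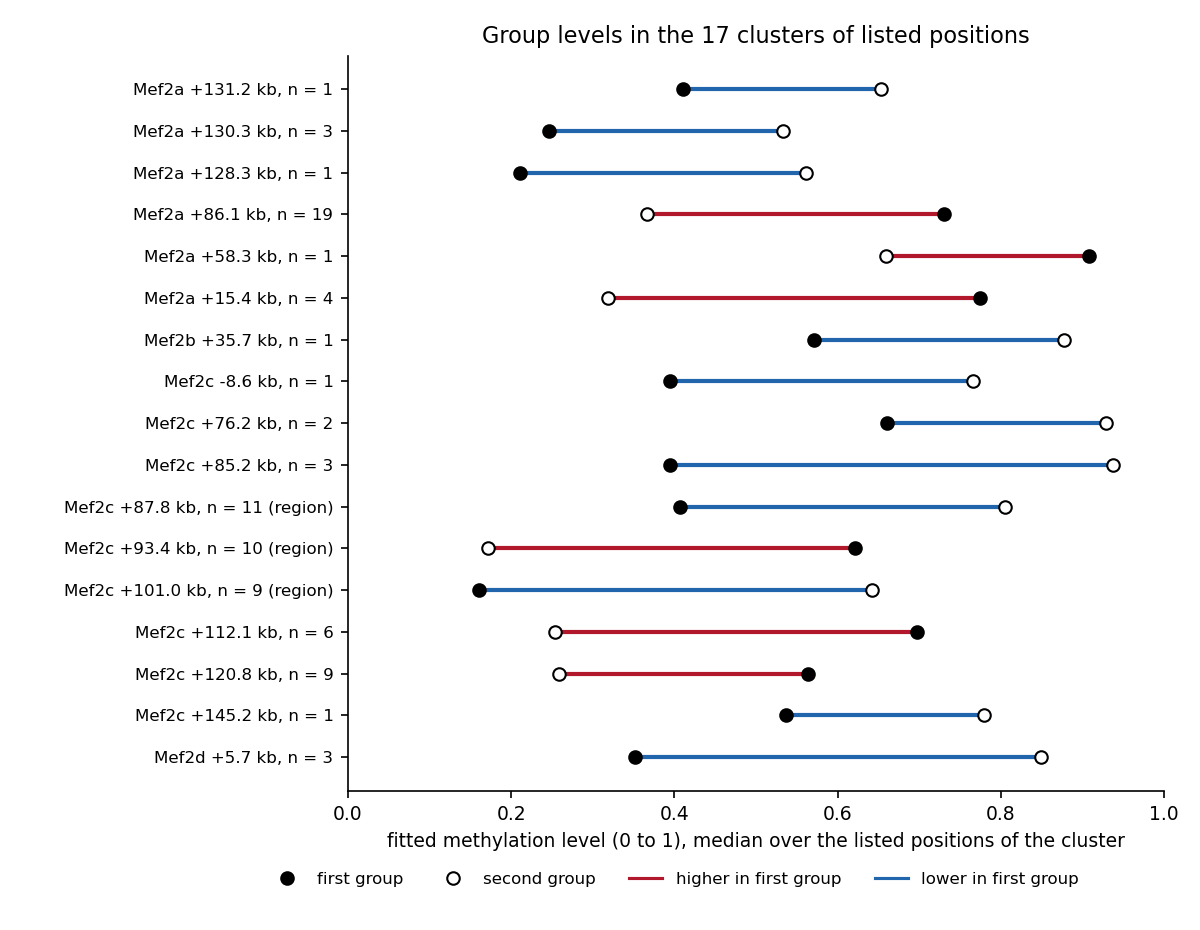
Median fitted methylation level (0 to 1, authors' deposited table) of the first and second group in each of the 17 clusters of listed positions at the 4 Mef2 genes, each cluster joined by a line. The first group is higher in 6 clusters, 3 of Mef2a and 3 of Mef2c, and lower in 11.

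Positions off a reference CpG were among those with the lowest FDRs of the family. Of the 85 listed positions, 72 lay on the C or G of a CpG in the reference and 13 (15.3%) did not, against 22% off a CpG over all listed positions. Positions off a CpG made up 5 of the 12 with an FDR under 0.05, against 27.7% of all listed positions with such an FDR. Those 5 include the best position of Mef2d and the only one of Mef2a. All 5 carry the same pair of dispersion values, 0.0571 and 0.0558, in the authors' deposited table, which 96.3% of all listed positions off a CpG share and 20.1% of those on one. Their median SE was also smaller, 0.0854 for the family's positions off a CpG and 0.118 for those on one. Of the 7 on a CpG with an FDR under 0.05, 6 were lower and 1 higher; 6 of them lie in Mef2c and 1 in Mef2d. Whether the shared dispersion sets the low FDRs was not tested.

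Motifs that IRF8 binds were looked up on both strands in 300-base windows, centred on the regions and on the family's clusters that hold no region. IRF8 binds DNA mostly beside an ETS factor such as PU.1, at the composite GGAANNGAAA, or with another IRF at GAAANNGAAA. Of the 3389 region windows, 11.2% hold GGAANNGAAA, 2.38% of the higher and 21.3% of the lower ones, and 5.28% hold GAAANNGAAA. None of the 3 Mef2c windows holds either. The ETS core GGAA, which is part of the composite, occurs 6, 3 and 7 times in them and in 97.1% of all windows. A MEF2 site (CTA, 4 bases A or T, TAG) was in none of the Mef2c windows and in 0.443% of all.

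The Mef2a intron window printed above holds the composite once, on the minus strand at chr7:67286724-67286733, as GGAAAGGAAA. The window around the position in Tmem161a, which is 100% repeat-masked, also holds it once on the minus strand as GGAATAGAAA, at chr8:70175479-70175488. No other window of the family's 17 clusters holds the composite, against 11.2% of all region windows that do. A match is only a run of letters, and no binding was measured.

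Genes that act with MEF2 were described in the same way, from a list of 26 deacetylases, kinases, calcium signalling proteins, coactivators and targets. Of these, 8 had a region within 10000 bp (30.8%, against 9.19% of all protein-coding genes), and 10 of the 26 are 100 kb or longer. The 16 shorter genes had 4 of the 8. Over the 13 regions 9 were higher and 4 lower. At 15 of the 26 (57.7%, against 30.8% of all protein-coding genes) a listed position had an FDR under 0.05, higher at 10 genes and lower at 9. Over all protein-coding genes that share goes with length, from 15.5% of those under 5 kb to 90.4% of those over 200 kb. The 26 genes were not compared with others of their length. The median listed share of tested positions was 0.415%.

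Class IIa deacetylases, which bind and repress MEF2, had regions at Hdac9 and Hdac7. Hdac9, like Mef2c, went both ways, with 2 regions lower and 2 higher; the largest, chr12:34667864-34668019, had levels of 0.186 and 0.770 and a difference of -0.584 in the authors' deposited table. Of the genes that carry calcium signals to MEF2, Ppp3ca, the catalytic subunit of calcineurin, had a lower region at chr3:136834479-136834812 with 0.245 and 0.687, a difference of -0.442 in the authors' deposited table. Mapk14, the p38 kinase that phosphorylates MEF2, was lower at chr17:28711005-28711264, with 0.439 and 0.855 and a difference of -0.416 in the authors' deposited table.

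The coactivator and target genes that had a region were higher there. Ncoa2, a coactivator of the p160 family, had levels of 0.744 and 0.321 at chr1:13366539-13367036, a difference of 0.424 in the authors' deposited table. The region with the largest area score on the list, 156, lay past the end of Klf2, a Krüppel-like factor and known MEF2 target, at chr8:72322527-72323080, with 0.816 and 0.285 and a difference of 0.531 in the authors' deposited table. Nr4a1, an orphan nuclear receptor induced through MEF2 in T cells, had 0.771 and 0.415 at chr15:101261396-101261758, a difference of 0.356 in the authors' deposited table. The area scores of Klf2 and Ncoa2 (156 and 120) were above those of the 3 Mef2c regions. The other 2 genes with regions, Camk2d and Hdac7, had 4 in all, each higher, by 0.315 to 0.461 in the authors' deposited table.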

How the data were processed

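Reads were trimmed and aligned with Trim Galore and Bismark on mm10, per the submitters' processing notes; the sources used here name no versions, test, settings or coverage minimum. Both files hold a comparison made by the authors. Per the file headers, the deposited site table gives a fitted methylation level (fraction) per group, the difference with its standard error, a test statistic (score), a dispersion, a p-value with its FDR and a posterior probability. The deposited region table gives fraction levels, an area score and the count of cytosines (not reads). The number of unused per-sample columns was 0, and read depth is unknown.

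The build was checked: 78% of listed positions fell on a CpG of GRCm38, and 1.71% after a shift of 100 bp. Rows within 10000 bp of each GENCODE M21 gene were taken and joined into clusters at gaps of up to 500 bp. Tested positions were counted from the deposited row numbers, by interpolation at window edges. Work was done in Python 3.11.15 with pandas 2.3.3, numpy 2.4.6, scipy 1.17.1 and matplotlib 3.10.9, and the counting was tested on simulated data. No further test was run: for 2 against 2 samples the smallest p of an exact permutation test is 0.333 (two-sided).

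The members and gene lists were chosen with earlier results of these data known. Named genes were the 4 Mef2 genes with all their regions, genes inside their windows, and, of the 26 partner genes, the 6 with the largest absolute area score; Camk2d and Hdac7 fall outside that rule and were named after their values were seen. Other windows, FDR limits, region sizes, reference CpGs and dispersions were tried as alternatives.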

Additional observations from a re-analysis of the deposited data

How the results depend on the processing

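Of 63 alternative values, 48 stayed close to the reported value and 15 moved. Close means within 1.5 times for counts and within the exact binomial 95% interval for shares, which takes positions as independent. Of the 63, 18 were levels and differences of the Mef2c regions, taken as medians over each region's own positions. Of these, 17 stayed close. All listed positions of a region share 1 direction, so no region's difference could change sign. The 3 regions of Mef2c were unchanged without flanks and with flanks of 50000 bp, fell to 2 with at least 3 reference CpGs, and to 1 both with at least 10 cytosines and with an area score at or above the median; fewer regions can pass such limits by construction. The 12 positions with an FDR under 0.05 became 7 at an FDR under 0.01 and 3 under 0.001, 7 on reference CpGs, 7 as clusters, 4 with their own dispersion in both groups, and 7 with their own dispersion in at least 1 group; this last setting, and other flanks for the shares of higher positions, were chosen after seeing the data. The share of higher positions at Mef2a, 82.8%, was 100% among positions with an FDR under 0.05, which is 1 position, and 50% over clusters. At Mef2c the share of 48.1% became 22.2% with an FDR under 0.05 and 33.3% over clusters, and with flanks of 50000 bp it was 53.4%, on the other side of an even split but inside its interval of 34% to 62.4%. The listed share of tested positions at Mef2a went from 1.41% to 0.769% with flanks of 50000 bp, where 0 further positions were listed, and at Mef2b from 0.0666% to 0 without flanks. At Mef2d the listed share of 0.203% was 0.354% without flanks and 0.553% with flanks of 50000 bp, both inside its wide interval of 0.0419% to 0.592%, since it rests on 3 positions. In region 3 of Mef2c the second-group level was 0.629 over the region and 0.797 at the 1 position with an FDR under 0.05. No paired analysis was possible because values are given per group and not per sample; for the same reason a stricter coverage minimum and leaving out each replicate were not run. Depth, which would limit each level, is unknown.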

Other observations

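Between 10000 and 50000 bp from the genes, further listed positions lay at 3 of the 4 Mef2 genes, each gene's in 1 direction. They form 3 clusters at Mef2c, 2 at Mef2d and 1 at Mef2b, and neighbouring positions share a smoothed value. Around Mef2c 6 positions were all higher, by 0.262 to 0.444 with no FDR below 0.0633 in the authors' deposited table. Around Mef2d 20 positions were all lower, from -0.353 to -0.238 with no FDR below 0.302 in the authors' deposited table, and they include positions in the neighbouring gene Iqgap3. At Mef2b 2 positions were lower by -0.266, with an FDR of 0.000245 in the authors' deposited table, and Mef2a had 0.

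The regions keep row numbers that reach 68175 for 3389 rows. The 3 Mef2c regions carry the numbers 16679, 16681 and 16682 in the authors' deposited table, and the number between the first and the second is not among the rows used here.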
